A study of Mus musculus with 6 samples.

Results

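The 42 genes described here encode the machinery that brings proteins into the endoplasmic reticulum (ER), folds them there, removes those that fail to fold, and senses the load. They were chosen by gene symbol from the 27458 genes of the deposited table, with no measured value in the rule, and all 42 were found. Earlier results of these data were known when the choice was made. RNA was sequenced from bone marrow macrophages, primary cells taken from mouse marrow. There were 3 libraries from RKIP-/- mice (KO) and 3 from RKIP+/+ mice (WT), and cells of both genotypes were treated with macrophage colony-stimulating factor (M-CSF). RKIP, the Raf kinase inhibitor protein, is encoded by Pebp1, and the study asked how it directs the differentiation of macrophages. Strain, age and the way the allele was made were not given in the sources used here. Nor was it given whether the 3 libraries of a genotype came from separate animals, so a p-value speaks of variation among libraries that may be technical.

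Proteins bound for the cell surface, the lysosome or secretion are threaded through the Sec61 channel into the ER, where a signal peptidase trims them and an oligosaccharyltransferase adds sugars. Chaperones of the Hsp70 and Hsp90 families, the lectins calnexin and calreticulin, and protein disulfide isomerases fold them, and proteins that stay misfolded are pulled back to the cytosol for degradation. When unfolded proteins gather, the sensors IRE1 (Ern1), PERK (Eif2ak3) and ATF6 start the unfolded protein response, which raises transcription of chaperone genes through spliced XBP1 and cleaved ATF6 and of amino acid and stress genes through ATF4. Macrophages carry a steady secretory load of lysosomal enzymes, receptors and cytokines.

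Many of these genes share a short promoter sequence, the ER stress element, to which ATF6 and XBP1 are known to bind. Its letters, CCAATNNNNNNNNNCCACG, were looked for on both strands in RefSeq promoters (build GRCm38.p6, 250 bases before to 50 after the start), which were at hand for 33 of the 42 genes. The element was present in 9 of these 33, namely Hspa5, Hsp90b1, Calr, Canx, Pdia6, Creld2, Dnajc3, Syvn1 and Derl3, and in 37 of all 27025 genes with a promoter (0.137%). Because the element was first described in the promoters of such chaperone genes, this share is a description of the list and not an independent result. The promoters of 6 of them are printed 5′ to 3′ to show the shared letters, with each match in capitals. The first 5 belong to genes that were lower in KO and the last, Canx, to one that did not pass the test. This choice does not show the balance: the element was in 5 of the 16 lower genes with a promoter and in 4 of the 17 others.
Hspa5 (chr2:34771840-34772139, plus strand): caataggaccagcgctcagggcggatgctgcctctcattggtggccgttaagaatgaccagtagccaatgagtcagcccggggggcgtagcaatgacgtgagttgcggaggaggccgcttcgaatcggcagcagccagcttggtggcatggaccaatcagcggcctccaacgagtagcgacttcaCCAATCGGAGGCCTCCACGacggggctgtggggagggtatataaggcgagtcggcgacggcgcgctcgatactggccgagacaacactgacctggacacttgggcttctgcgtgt
Hsp90b1 (chr10:86705395-86705694, minus strand): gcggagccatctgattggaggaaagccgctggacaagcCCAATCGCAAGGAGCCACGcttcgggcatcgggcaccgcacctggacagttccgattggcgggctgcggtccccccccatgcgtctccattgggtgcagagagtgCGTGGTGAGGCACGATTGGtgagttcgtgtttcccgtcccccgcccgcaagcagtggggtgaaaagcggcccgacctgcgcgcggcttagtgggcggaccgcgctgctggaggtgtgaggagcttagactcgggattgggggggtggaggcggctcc
Calr (chr8:84846882-84847181, minus strand): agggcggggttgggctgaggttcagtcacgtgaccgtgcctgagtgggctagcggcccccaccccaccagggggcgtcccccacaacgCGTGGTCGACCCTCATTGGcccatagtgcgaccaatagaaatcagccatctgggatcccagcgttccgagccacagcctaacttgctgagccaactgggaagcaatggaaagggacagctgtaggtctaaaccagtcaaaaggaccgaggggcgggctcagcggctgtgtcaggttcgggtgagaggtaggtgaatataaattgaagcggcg
Pdia6 (chr12:17266339-17266638, plus strand): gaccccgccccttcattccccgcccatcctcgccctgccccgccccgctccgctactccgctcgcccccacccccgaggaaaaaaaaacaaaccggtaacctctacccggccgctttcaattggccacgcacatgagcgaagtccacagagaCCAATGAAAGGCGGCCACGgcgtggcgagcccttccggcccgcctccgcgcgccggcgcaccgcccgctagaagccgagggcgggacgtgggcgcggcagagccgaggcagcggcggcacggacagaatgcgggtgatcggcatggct
Creld2 (chr15:88819396-88819695, plus strand): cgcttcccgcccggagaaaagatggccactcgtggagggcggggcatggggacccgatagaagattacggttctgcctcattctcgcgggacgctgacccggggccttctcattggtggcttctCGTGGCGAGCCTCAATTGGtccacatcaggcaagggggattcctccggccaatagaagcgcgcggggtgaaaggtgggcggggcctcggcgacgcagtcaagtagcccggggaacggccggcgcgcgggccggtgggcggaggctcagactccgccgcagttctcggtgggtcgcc
Canx (chr11:50325624-50325923, minus strand): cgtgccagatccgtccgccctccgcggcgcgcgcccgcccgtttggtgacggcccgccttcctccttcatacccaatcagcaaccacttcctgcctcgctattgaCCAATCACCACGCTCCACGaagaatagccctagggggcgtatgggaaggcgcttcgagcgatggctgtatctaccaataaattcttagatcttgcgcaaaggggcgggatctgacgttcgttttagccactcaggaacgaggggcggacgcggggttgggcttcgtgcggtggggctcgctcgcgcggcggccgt
A related element, ATTGG and CCACG with 1 base of any kind between them, was found in the promoters of Dnajb11 and Herpud1 (2 of 33, against 12 of 27025 genes, 0.0444%). The letters TGACGTGG, to which XBP1 can bind, were found in 0 of 33 (193 of 27025 genes, 0.714%), and TTGCATCA, a sequence recognised by ATF4 dimers, in Herpud1 alone (279 of 27025 genes, 1.03%). No match of 1 motif overlapped a match of another in these genes. A match describes letters in this window and not a site in use.

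KO was set against WT with edgeR's quasi-likelihood test on the authors' estimated counts, for the 11636 genes whose mean reached 1 FPKM (fragments per kilobase of transcript, scaled to sequencing depth). Benjamini-Hochberg adjustment ran over all of them, with a threshold of 0.05. Each log2 fold change is KO over WT and carries an approximate standard error, and each mean a SD over 3 libraries. The libraries held 53188659 to 70059042 estimated counts. Pebp1 checked the labels: its count was 0 in all 3 KO libraries, against 39.2, 33.2 and 39.0 FPKM in the WT libraries, a fall of at least 413-fold if KO is set at a floor of 12 counts in each library. The length of the transcript went with the fold change over all genes, with a median log2 fold change of -0.32 among the shortest of 10 equal bins (38 to 966 bp) and 0.20 among the longest (6575 to 40378 bp). A correction for length and GC content was therefore fitted too, and the calls it made or ended among the 42 genes are given below.

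All 10 macrophage markers were detected, with summed levels of 19077 to 19359 FPKM in KO and 20884 to 22353 FPKM in WT. Most of each sum was Lyz2 (16647.5 ± 88.8 FPKM in KO and 19286 ± 768 FPKM in WT), so the sums mainly follow that gene. Of the 10 markers 3 were higher and 5 lower in KO (3 and 3 with the correction for length and GC content). The higher ones were Adgre1, Csf1r and Mrc1 in both fits, and the lower ones in both were Lyz2, Fcgr1 and Cx3cr1. Markers of other cells were measured as well. All 7 tested of 10 neutrophil markers were lower in KO, with sums of 2.98 to 3.29 FPKM in KO and 68.5 to 155 FPKM in WT, and Ly6g was listed at 0 in all KO libraries. The lowest WT sum was that of WT library 1, and without it 19 of the 41 tested genes were lower and 2 higher in KO. Leaving out that library keeps the WT libraries with the higher sums (146 and 155 FPKM), so this count does not test the part of neutrophils. Plasma cells secrete antibody and are rich in ER. Summed over 10 markers, their level was 88.7 to 102 FPKM in KO and 65.8 to 74.1 FPKM in WT, with 3 of 5 tested higher and 1 lower (4 and 1 with the correction). The higher ones were the antibody genes Ighm (41.8 ± 3.96 FPKM in KO and 22.5 ± 2.49 FPKM in WT) and Ighg1 (3.96 ± 0.470 FPKM in KO and 1.18 ± 0.0755 FPKM in WT) and the transcription factor gene Prdm1 (2.05 ± 0.0683 FPKM in KO and 1.40 ± 0.108 FPKM in WT). The lower one was Sdc1. Igkc was called higher only with the correction (edgeR, adjusted p = 0.00193). The untested Irf4 (1.03 ± 0.113 FPKM in KO and 0.460 ± 0.0577 FPKM in WT) had all KO libraries above all WT libraries. The mean of the untested Jchain was higher in KO and that of Tnfrsf17 lower, with overlapping groups. Mzb1 and Pou2af1, which mark plasma and B cells, were at 0 to 0.15 FPKM in every library. The 8 stromal markers, the collagen genes of ER-rich fibroblasts among them, summed to 981 to 1097 FPKM in KO and 952 to 1055 FPKM in WT, with 1 of 6 tested higher and 1 lower. With the correction 1 was higher and 3 lower, the collagen genes Col1a1 (log2 fold change -0.19) and Col3a1 (-0.15) among them (edgeR, adjusted p = 0.000731 and 0.00161), against -0.14 and -0.09 without it (edgeR, adjusted p = 0.0711 and 0.102). The higher one was Cxcl12 (135 ± 5.17 FPKM in KO and 87.7 ± 2.32 FPKM in WT), with a log2 fold change of 0.57 without the correction and 0.49 with it. Pdgfrb was lower in both fits, and Col1a2 and Pdgfra were called in neither. Of 5 dendritic cell markers only Itgax was tested and it was higher. Flt3 was listed at 0 in all libraries but WT library 3, which had 3 counts. Cd209a was at 0 in all WT libraries and had 12, 0 and 10 counts in the KO libraries. Neither exceeded the floor of 12 counts, so no difference is read from them. The part of any of these cells in the results below was not tested, and in bulk RNA fewer cells of a type and less RNA per cell cannot be told apart.

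Of the 42 genes, 41 passed the filter on low values, and 21 of them were lower and 2 higher in KO, while 18 did not pass the test. Over all 11636 genes, 19.4% were lower and 20.3% were higher, 39.7% in either direction. The median log2 fold change was -0.14 over the 41 genes and -0.01 over all genes tested. In FPKM, all KO libraries lay below all WT libraries for 21 of the 41 and above them for 7, against 19.1% and 32.4% of all genes tested. The 21 were those called lower, and the 7 were Ern1, Atf6, Eif2ak3, Canx, Sel1l, Ssr1 and Ssr3. The FPKM scale sat slightly higher in KO than the counts of the test: over all genes the median log2 fold change was 0.04 in limma on log2(FPKM + 1). The balance of calls depended on the scale: in limma, 17 of the 41 genes were lower and 4 higher (2770 higher and 1639 lower over all genes), and with upper-quartile scaling 24 were lower and 2 higher (1913 higher and 2880 lower over all genes, against 2364 and 2253 in the test used). The remaining gene, Derl3, known as a derlin of secretory cells, was at 0.191, 0.386 and 0.261 FPKM in the KO libraries, against 0.419, 0.316 and 0.151 FPKM in the WT libraries, and its groups overlapped.

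**Figure D1:**
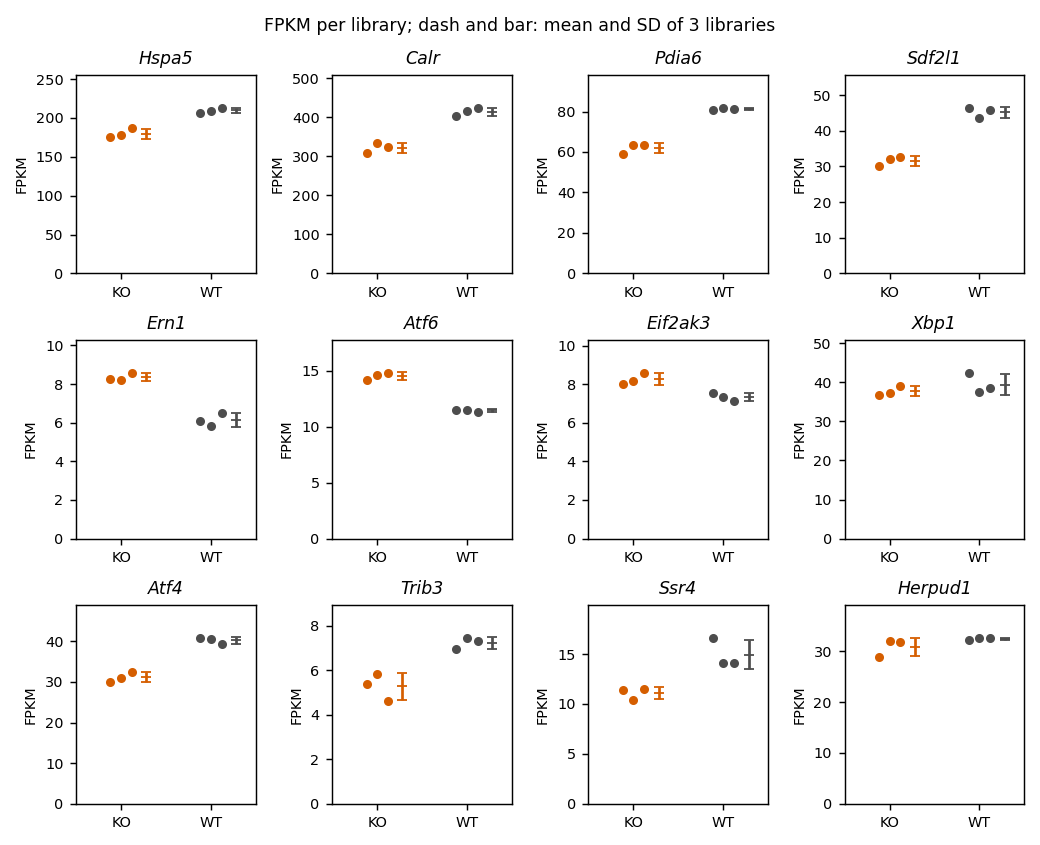
FPKM in each library (points, KO left of WT) for 12 of the genes, with the mean and SD of 3 libraries beside them as a dash and a bar. Axes start at 0; the KO points lie below the WT points for Hspa5, Calr, Pdia6, Sdf2l1, Atf4, Trib3 and Ssr4 and above them for Ern1, Atf6 and Eif2ak3, while those of Xbp1 overlap.

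Genes of protein folding were mostly lower in KO. Of 15 chaperones, lectin chaperones and disulfide isomerases, 12 were lower in KO and 0 higher, with a median log2 fold change of -0.28. Over all genes tested, 19.4% were lower and 20.3% higher. Together the 15 genes summed to 1498, 1574 and 1599 FPKM in the KO libraries, against 1789, 1819 and 1825 FPKM in the WT libraries, with means of 1557 ± 52.3 FPKM in KO and 1811 ± 19.1 FPKM in WT and a ratio of 0.860 between them. With the length and GC correction 13 of the 15 were lower, all of the 12 among them, and the median was -0.25. Over all genes 16.3% were lower with that correction. In limma the calls of Hsp90b1 and Pdia3 ended (limma on log2(FPKM + 1), adjusted p = 0.0592 and 0.0664).

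Hspa5 encodes BiP, the Hsp70 chaperone that also holds the sensors inactive, and lies on chromosome 2, 34771970 to 34777547, plus strand. Its level was 175, 178 and 187 FPKM in the KO libraries, against 207, 209.6 and 213 FPKM in the WT libraries. All KO libraries were below all WT libraries, with a log2 fold change of -0.28 ± 0.04 (edgeR, adjusted p = 0.000215), or 1.21-fold lower. Hsp90b1, the Hsp90 chaperone of the ER, stood at 207, 217 and 225 FPKM in the KO libraries, against 231, 240.0 and 233 FPKM in the WT libraries. The groups did not overlap, but the difference was smaller (log2 fold change -0.17 ± 0.04, edgeR, adjusted p = 0.00444). Hyou1, a large Hsp70 relative that exchanges the nucleotide of BiP, had 17.1, 18.1 and 19.2 FPKM in the KO libraries, against 21.1, 24.3 and 23.4 FPKM in the WT libraries. Here the KO libraries were again all lower (log2 fold change -0.39 ± 0.06, edgeR, adjusted p = 0.000277).

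Co-chaperones of BiP differed among themselves. Dnajb11, which delivers unfolded clients to BiP, was lower at 29.2, 28.5 and 31.5 FPKM in the KO libraries, against 34.2, 33.6 and 35.1 FPKM in the WT libraries (log2 fold change -0.26 ± 0.05, edgeR, adjusted p = 0.00108). Sdf2l1, a partner of Dnajb11 that lies on chromosome 16, 17130138 to 17132383, minus strand, was 1.49-fold lower, the largest fall of the 15 folding genes before correction for length and GC content. It stood at 30.0, 32.2 and 32.5 FPKM in the KO libraries, against 46.5, 43.5 and 45.8 FPKM in the WT libraries, with a gap between the genotypes wider than the range within either (log2 fold change -0.57 ± 0.05, edgeR, adjusted p = 1.46e-05). The other 2 members of the J-domain family did not pass the test. Dnajb9, a target of spliced XBP1, stood at 12.5 ± 0.537 FPKM in KO and 11.8 ± 0.630 FPKM in WT (edgeR, adjusted p = 0.746). Dnajc3, which is known to restrain PERK, stood at 25.9 ± 1.32 FPKM in KO and 24.8 ± 0.121 FPKM in WT (edgeR, adjusted p = 0.881). Corrected for length and GC content, Sdf2l1, a short transcript of 1108 bp, was at -0.34 on the log2 scale (edgeR, adjusted p = 0.000573), a smaller fall than those of Hyou1 (-0.44) and Pdia6 (-0.36). Dnajc3, of 5141 bp, was then at -0.15, against 0.01 without the correction, and passed the threshold (edgeR, adjusted p = 0.00513).

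Manf and Creld2 encode small ER proteins that cells secrete under ER stress. Manf, which binds BiP, had 19.8, 21.1 and 21.6 FPKM in the KO libraries, against 26.3, 26.6 and 26.9 FPKM in the WT libraries. Creld2 had 12.3, 13.6 and 13.5 FPKM in the KO libraries, against 17.9, 17.3 and 19.3 FPKM in the WT libraries. For both genes every KO library was below every WT library, by -0.41 for Manf and -0.52 for Creld2 on the log2 scale (edgeR, adjusted p = 2.49e-05 and 0.000200). The correction for length and GC content left Creld2, whose transcript has 1366 bp, at -0.33 (edgeR, adjusted p = 0.00518). As listed, Manf overlaps Rbm15b on the same strand over 6511 bases, at 6.21 FPKM in KO and 5.43 FPKM in WT, so its reads are uncertain.

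The lectin chaperones, which bind the sugars of unfinished glycoproteins, are 2 genes, of which 1 was lower in KO. Calr, the soluble calreticulin and the gene with the highest FPKM of all 42, was 1.34-fold lower and stood at 308, 333 and 325 FPKM in the KO libraries, against 403, 415 and 424 FPKM in the WT libraries (log2 fold change -0.42 ± 0.04, edgeR, adjusted p = 1.4e-05). It lies on chromosome 8, 84841850 to 84846934, minus strand. Canx, the membrane-bound calnexin, had 131, 128 and 136 FPKM in the KO libraries, against 119, 119.5 and 127 FPKM in the WT libraries. Although its KO values were all above the WT values in FPKM, it did not pass the test (log2 fold change 0.05 ± 0.04, edgeR, adjusted p = 0.349), nor with the correction, where its log2 fold change was -0.08 (edgeR, adjusted p = 0.110).

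All 4 protein disulfide isomerases were lower in KO, also with the correction for length and GC content. Over all genes 19.4% were lower without the correction and 16.3% with it. Pdia6 led with 59.0, 63.2 and 63.5 FPKM in the KO libraries, against 80.6, 81.9 and 81.3 FPKM in the WT libraries (log2 fold change -0.45 ± 0.04, edgeR, adjusted p = 1.2e-05). The 3 WT values of Pdia6 lay close together, and the KO values all below them. P4hb, the founding member of the family and a subunit of collagen prolyl hydroxylase, had 216, 234 and 227 FPKM in the KO libraries, against 268, 277 and 269.9 FPKM in the WT libraries (log2 fold change -0.32 ± 0.04, edgeR, adjusted p = 7.59e-05). Pdia4 had 66.3, 72.5 and 76.0 FPKM in the KO libraries, against 81.7, 82.2 and 83.3 FPKM in the WT libraries. Pdia3, the isomerase that works with the lectin chaperones, had 189.6, 198 and 201 FPKM in the KO libraries, against 215, 211 and 206 FPKM in the WT libraries. Groups were apart for both, with smaller differences of -0.26 ± 0.05 for Pdia4 and -0.16 ± 0.04 for Pdia3 on the log2 scale (edgeR, adjusted p = 0.00142 and 0.00614).

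**Figure D2:**
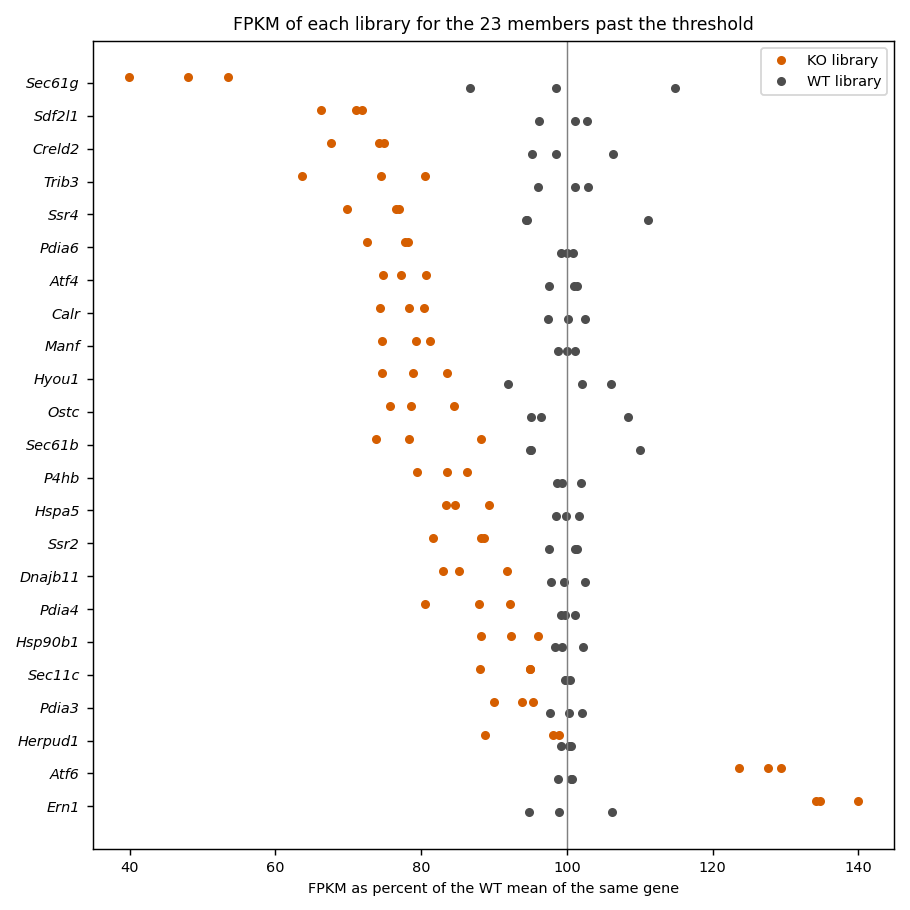
FPKM of each library as a percent of the WT mean of the same gene, for the 23 genes past the threshold, with KO points above WT points in each row. Genes run from the largest fall, Sec61g, to the largest rise, Ern1; the KO and WT points of each gene lie apart, with the narrowest gap for Herpud1.

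RNA of 2 sensors was higher in KO, opposite to the chaperones. Ern1, which encodes the kinase and nuclease IRE1 that splices Xbp1 and lies on chromosome 11, 106394650 to 106487852, minus strand, stood at 8.26, 8.22 and 8.58 FPKM in the KO libraries, against 6.07, 5.81 and 6.51 FPKM in the WT libraries. The KO values were all above the WT values (log2 fold change 0.39 ± 0.05, edgeR, adjusted p = 0.000149), 1.31-fold higher. Atf6, the membrane-bound transcription factor released by cleavage in the Golgi, stood at 14.1, 14.6 and 14.8 FPKM in the KO libraries, against 11.5, 11.5 and 11.3 FPKM in the WT libraries. It was 1.22-fold higher (log2 fold change 0.29 ± 0.04, edgeR, adjusted p = 0.000146) and lies on chromosome 1, 170704674 to 170867771, minus strand. Both transcripts are long, 6946 and 7246 bp, and corrected for length and GC content Ern1 was at 0.27 and Atf6 at 0.10 on the log2 scale (edgeR, adjusted p = 0.00139 and 0.0435). Eif2ak3, which encodes PERK, the kinase that slows translation by phosphorylating eIF2α, had 7.999, 8.19 and 8.59 FPKM in the KO libraries, against 7.54, 7.34 and 7.11 FPKM in the WT libraries. Its groups lay apart in FPKM, but it did not pass the test (log2 fold change 0.12 ± 0.05, edgeR, adjusted p = 0.0798).

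The transcription factors below the sensors differed too. Xbp1, the target of IRE1, had 36.9, 37.3 and 39.2 FPKM in the KO libraries, against 42.4, 37.5 and 38.5 FPKM in the WT libraries, with overlap between the genotypes (log2 fold change -0.12 ± 0.05, edgeR, adjusted p = 0.0910). These values are for the whole gene and do not separate spliced from unspliced RNA. Atf4, the factor translated when PERK is active, had 30.0, 31.0 and 32.4 FPKM in the KO libraries, against 40.8, 40.6 and 39.2 FPKM in the WT libraries, and every KO library was lower (log2 fold change -0.42 ± 0.04, edgeR, adjusted p = 1.95e-05). It lies on chromosome 15, 80255184 to 80257541, plus strand. Trib3, a pseudokinase gene induced through ATF4, was also lower at 5.39, 5.83 and 4.61 FPKM in the KO libraries, against 6.95, 7.45 and 7.31 FPKM in the WT libraries (log2 fold change -0.51 ± 0.10, edgeR, adjusted p = 0.00176). Its groups did not overlap.

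**Figure D3:**
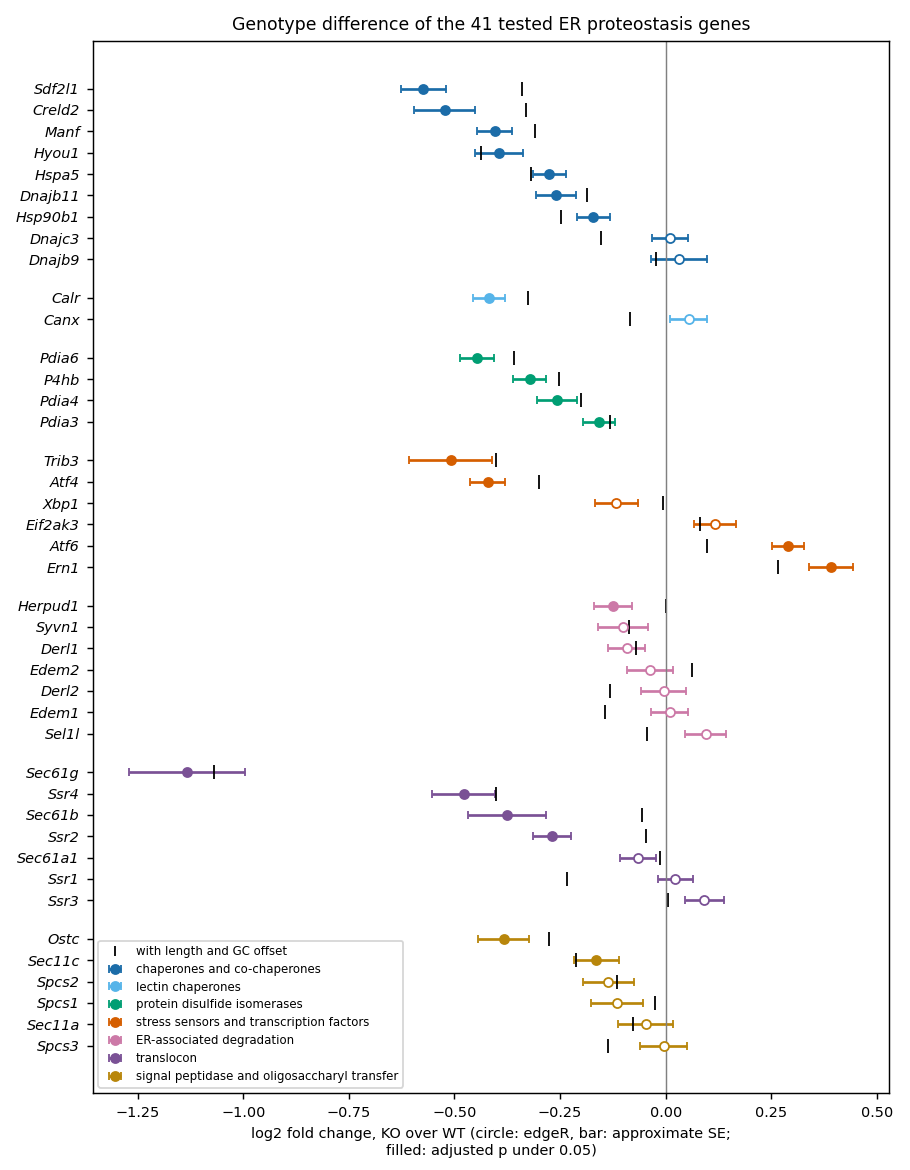
Log2 fold change, KO over WT, of the 41 tested genes by role (circles with approximate standard error; filled where the adjusted p was under 0.05), with the value after correction for length and GC content as a black tick. Chaperones and isomerases lie mostly left of 0, Ern1 and Atf6 right of it, and the genes of degradation near it; the ticks of Sec61b, Ssr1, Sdf2l1 and Ssr2 stand farthest from their circles.

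The 7 tested genes of ER-associated degradation had a median of -0.04 on the log2 scale. Of these, 1 was lower and 0 higher in KO, against 19.4% and 20.3% of all genes tested. That gene was Herpud1, a scaffold of the degradation complex, at 28.8, 32.1 and 31.8 FPKM in the KO libraries, against 32.2, 32.6 and 32.6 FPKM in the WT libraries. It lay close to the threshold (log2 fold change -0.12 ± 0.04, edgeR, adjusted p = 0.0434), and after correction for length and GC content it did not pass (edgeR, adjusted p = 0.997). The call of Herpud1 also ended in DESeq2, in limma, without the filter, and without KO library 1 or 3 or any of the WT libraries (adjusted p from 0.0518 to 0.284). The adaptor Sel1l (25.7 ± 1.24 FPKM in KO and 23.1 ± 1.07 FPKM in WT), the ubiquitin ligase Syvn1 (10.8 ± 0.722 FPKM in KO and 11.2 ± 0.652 FPKM in WT) and the channel protein Derl1 (37.1 ± 0.943 FPKM in KO and 38.1 ± 1.68 FPKM in WT) did not pass the test (edgeR, adjusted p = 0.140, 0.200 and 0.119). Likewise Derl2, a derlin, and the mannosidase-like genes Edem1 and Edem2, which mark glycoproteins for removal, had adjusted p from 0.630 to 0.960 in edgeR. With the correction Edem1 passed, at -0.14 on the log2 scale (edgeR, adjusted p = 0.0219).

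Of 7 translocon genes, 4 were lower in KO and 0 higher, against 19.4% and 20.3% of all genes tested. With the correction for length and GC content 3 were lower and 0 higher, against 16.3% and 14.3% of all genes. Of the lower calls 2 were the same in both fits. The median log2 fold change was -0.27 without the correction and -0.06 with it. Sec61a1, which forms the pore, stood at 24.5 ± 0.493 FPKM in KO and 24.7 ± 0.543 FPKM in WT and did not pass the test (edgeR, adjusted p = 0.251), whereas the small subunits Sec61b and Sec61g were lower. Sec61g had 2.51, 2.09 and 2.80 FPKM in the KO libraries, against 5.998, 4.53 and 5.15 FPKM in the WT libraries, the largest fall of the 42 genes (log2 fold change -1.13 ± 0.14, edgeR, adjusted p = 7.76e-05). With the correction for length and GC content it was at -1.07 (edgeR, adjusted p = 0.000103). That correction takes its longest annotated transcript, of 1862 bp, and whether a shorter one was expressed was not tested. Reads of Sec61g are uncertain, because 5 pseudogenes in the table match it, and Gm10177 (3.29 FPKM in KO and 4.57 FPKM in WT) is identical over 420 bases. With the counts of all matched pseudogenes added, a setting chosen after the data were seen, its log2 fold change was -1.03 (edgeR, adjusted p = 0.000117). Pseudogenes also match Sec61b, Calr, Derl1, Dnajb9 and Spcs2, and no call of these changed when their counts were added. Sec61b had 9.81, 10.4 and 11.7 FPKM in the KO libraries, against 14.6, 12.6 and 12.6 FPKM in the WT libraries (log2 fold change -0.38 ± 0.09, edgeR, adjusted p = 0.00703). Its transcript has 723 bp, and once corrected it no longer passed (log2 fold change -0.06, edgeR, adjusted p = 0.668).

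The TRAP complex, which helps some signal sequences into the Sec61 channel, has 4 subunits. Ssr4 had 11.4, 10.4 and 11.5 FPKM in the KO libraries, against 16.6, 14.1 and 14.1 FPKM in the WT libraries, and all KO values were lower (log2 fold change -0.48 ± 0.07, edgeR, adjusted p = 0.000438). Ssr2 was lower at 29.2, 31.7 and 31.6 FPKM in the KO libraries, against 36.3, 34.9 and 36.2 FPKM in the WT libraries (log2 fold change -0.27 ± 0.04, edgeR, adjusted p = 0.000694), but its call ended after correction for length and GC content (log2 fold change -0.05, edgeR, adjusted p = 0.450). Ssr2 also overlaps Rtraf-ps on the opposite strand (5.84 FPKM in KO and 5.35 FPKM in WT), and the sources used here do not say if counting took strand into account. Ssr1 (13.5 ± 0.173 FPKM in KO and 12.8 ± 0.175 FPKM in WT) and Ssr3 (70.7 ± 4.08 FPKM in KO and 64.0 ± 1.08 FPKM in WT) did not pass the test (edgeR, adjusted p = 0.697 and 0.139). The long transcript of Ssr1, 9333 bp, was at -0.23 with that correction, against 0.02 without it, and passed (edgeR, adjusted p = 0.00129).

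Among signal peptidase genes, the catalytic subunit gene Sec11c was lower at 5.08, 5.47 and 5.47 FPKM in the KO libraries, against 5.75, 5.75 and 5.78 FPKM in the WT libraries. The difference was small (log2 fold change -0.16 ± 0.05, edgeR, adjusted p = 0.0302), and its call ended in limma, without the filter, and without KO library 1 or any of the WT libraries (adjusted p from 0.0557 to 0.162). The other catalytic subunit gene, Sec11a, and the accessory subunit genes Spcs1, Spcs2 and Spcs3 did not pass the test (log2 fold changes from -0.14 to -0.0046, edgeR, adjusted p from 0.0959 to 0.957). With the correction Spcs3 passed, at -0.14 on the log2 scale (edgeR, adjusted p = 0.0272). Ostc, a subunit of the oligosaccharyltransferase that acts on proteins still entering the channel, was lower at 15.4, 17.2 and 16.0 FPKM in the KO libraries, against 22.0, 19.3 and 19.6 FPKM in the WT libraries (log2 fold change -0.38 ± 0.06, edgeR, adjusted p = 0.000477). The KO values of Ostc were all below the WT values. Reads of Spcs1 and of Syvn1 are uncertain at their ends, where they overlap Glt8d1 over 273 bases and Mrpl49 over 91 bases on the opposite strand.

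**Figure D4:**
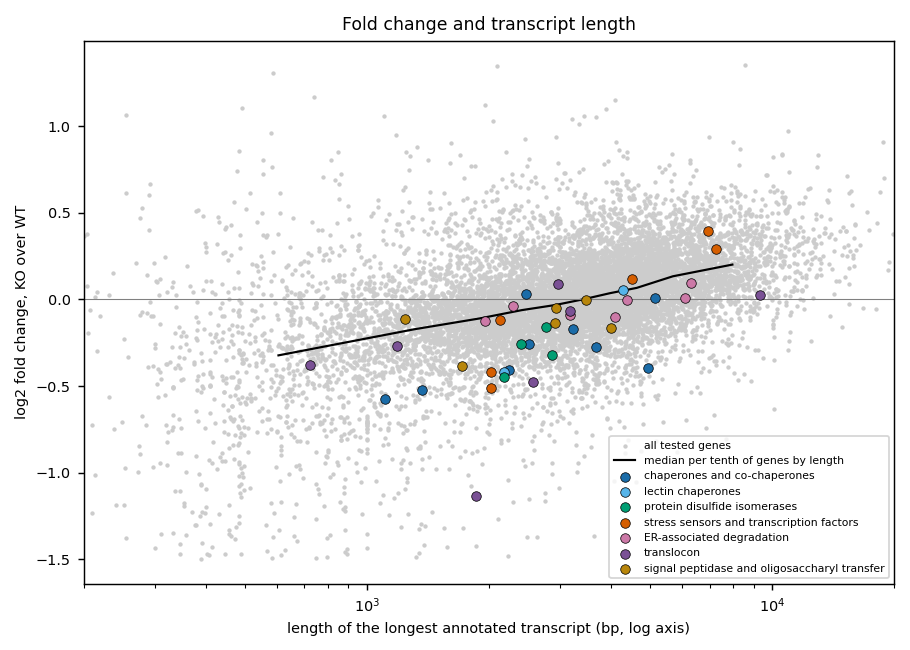
Log2 fold change, KO over WT, against the length of the longest annotated transcript (log axis) for all tested genes within the plotted range (grey), with the median of each of 10 equal bins by length as a line and the 41 tested genes coloured by role. Most folding genes lie below the line at their own length, Ern1 lies above it, and Sec61g stands apart at the bottom.

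By length the 41 genes lay near the middle of the table, with a median transcript of 2861 bp against 3151 bp over all genes tested. With the correction for length and GC content, 22 were lower and 2 higher, 18 and 2 of these the same genes as before, and the median log2 fold change was again -0.14. Over all genes, 16.3% were then lower and 14.3% higher. The calls of Herpud1, Sec61b and Ssr2 ended, and those of Ssr1, Dnajc3, Edem1 and Spcs3 were gained as lower (edgeR, adjusted p from 0.00129 to 0.0272).

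Genes of the same pathway outside the 42 were counted from 7 lists. Of 93 tested, 33 were lower and 14 higher, against 19.4% and 20.3% of all genes tested. Their median log2 fold change was -0.07. With the correction for length and GC content, 26 were lower and 6 higher, against 16.3% and 14.3% of all genes. Counts with the correction stand in brackets, lower first, and each list is to be read against these shares. By list, other subunits of the oligosaccharyltransferase were lower in 7 and higher in 0 of 11 (7 and 0), other genes of the PERK and ATF4 arm lower in 9 and higher in 4 of 16 (7 and 1), and other genes of degradation lower in 3 and higher in 1 of 16 (1 and 2). Other folding enzymes were lower in 6 and higher in 4 of 19 (6 and 1), regulators of the ATF6 and IRE1 arms lower in 3 and higher in 2 of 10 (1 and 1), genes of glycoprotein quality control lower in 2 and higher in 1 of 8 (2 and 0), and genes of signal recognition and translocation lower in 3 and higher in 2 of 13 (2 and 1).

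Other subunits of the oligosaccharyltransferase were lower along with Ostc. Dad1, a small subunit, had 8.87, 8.49 and 8.18 FPKM in the KO libraries, against 12.9, 12.0 and 12.8 FPKM in the WT libraries (log2 fold change -0.62 ± 0.06, edgeR, adjusted p = 1.76e-05). Rpn1, which holds substrates, had 36.6, 35.7 and 37.3 FPKM in the KO libraries, against 44.7, 45.0 and 46.8 FPKM in the WT libraries (log2 fold change -0.37 ± 0.04, edgeR, adjusted p = 5.68e-05). Rpn2 stood at 58.3 ± 0.937 FPKM in KO and 67.3 ± 1.52 FPKM in WT (edgeR, adjusted p = 0.000346). After the same correction 7 of the 11 subunits were again lower, 5 of them the same genes. The catalytic subunits Stt3a (26.2 ± 0.665 FPKM in KO and 26.4 ± 0.151 FPKM in WT) and Stt3b (37.8 ± 1.31 FPKM in KO and 36.8 ± 0.637 FPKM in WT) did not pass the test without it (edgeR, adjusted p = 0.217 and 0.815). With it Stt3a was lower, at -0.31 on the log2 scale (edgeR, adjusted p = 7.86e-05), and Stt3b did not pass (edgeR, adjusted p = 0.309).

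In the PERK and ATF4 arm, Ddit4, an inhibitor of the growth kinase mTORC1, had 9.45, 9.93 and 9.33 FPKM in the KO libraries, against 14.1, 15.0 and 14.7 FPKM in the WT libraries (log2 fold change -0.66 ± 0.07, edgeR, adjusted p = 2.43e-05). Nupr1, a stress-induced nuclear protein gene, was lower at 9.35 ± 0.944 FPKM in KO and 12.9 ± 0.221 FPKM in WT (edgeR, adjusted p = 0.000221). Cebpb, a transcription factor of myeloid differentiation, went the other way, with 7.09, 10.4 and 6.68 FPKM in the KO libraries, against 1.39, 1.80 and 1.82 FPKM in the WT libraries (log2 fold change 2.21 ± 0.18, edgeR, adjusted p = 6.61e-06). Among regulators of the other arms, Map3k5, a kinase that acts downstream of IRE1, was higher at 6.45 ± 0.170 FPKM in KO and 4.85 ± 0.169 FPKM in WT (edgeR, adjusted p = 0.000728). Mbtps2, the protease that makes the second cut of ATF6, was higher at 6.58 ± 0.273 FPKM in KO and 5.28 ± 0.264 FPKM in WT (edgeR, adjusted p = 0.00250). Tmbim6, an ER membrane protein that restrains IRE1, was lower at 85.7 ± 3.55 FPKM in KO and 92.9 ± 1.08 FPKM in WT (edgeR, adjusted p = 0.00628). Both of those calls ended after correction for length and GC content (edgeR, adjusted p = 0.402 and 0.0703), and that of Tmbim6 ended in limma too.

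Of folding enzymes outside the 42, the prolyl isomerase gene Fkbp2 was lower at 10.3 ± 0.930 FPKM in KO and 14.2 ± 0.633 FPKM in WT (edgeR, adjusted p = 0.000611). Ero1l, the oxidase that recharges disulfide isomerases, was higher at 23.6 ± 0.847 FPKM in KO and 19.5 ± 0.189 FPKM in WT (edgeR, adjusted p = 0.00111). The membrane isomerase gene Tmx3 was higher at 8.75 ± 0.901 FPKM in KO and 6.43 ± 0.469 FPKM in WT (edgeR, adjusted p = 0.00118). In glycoprotein quality control, the glucosidase genes Prkcsh (23.1 ± 0.233 FPKM in KO and 25.9 ± 0.716 FPKM in WT) and Mogs (6.46 ± 0.542 FPKM in KO and 8.06 ± 0.713 FPKM in WT) were lower and Edem3 (15.5 ± 1.03 FPKM in KO and 13.1 ± 0.109 FPKM in WT) higher (edgeR, adjusted p = 0.00144, 0.00594 and 0.00901). The ubiquitin ligase gene Marchf6 was higher at 13.1 ± 0.301 FPKM in KO and 10.1 ± 0.116 FPKM in WT (edgeR, adjusted p = 9.21e-05). Selenos, a selenoprotein gene (22.0 ± 1.60 FPKM in KO and 25.3 ± 0.740 FPKM in WT), and the conjugating enzyme gene Ube2g2 (21.6 ± 0.332 FPKM in KO and 23.3 ± 0.542 FPKM in WT) were lower (edgeR, adjusted p = 0.00783 and 0.0135). Tram1, which stands beside the Sec61 channel, was higher at 52.8 ± 1.45 FPKM in KO and 40.7 ± 0.594 FPKM in WT (edgeR, adjusted p = 0.000108). Srp14, of the signal recognition particle, was lower at 42.2 ± 1.33 FPKM in KO and 47.6 ± 2.17 FPKM in WT (edgeR, adjusted p = 0.00513). Srprb, of its receptor, was lower at 8.14 ± 0.647 FPKM in KO and 9.12 ± 0.142 FPKM in WT (edgeR, adjusted p = 0.0176). Correction for length and GC content ended the calls of Ero1l, Tmx3, Edem3, Selenos, Ube2g2 and Srp14 (edgeR, adjusted p from 0.225 to 0.750). The call of Srprb ended in limma, without the filter, and without KO library 1 or 3 or WT library 2 (adjusted p from 0.0528 to 0.0806), and that of Ube2g2 in limma and without WT library 2.

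**Figure D5:**
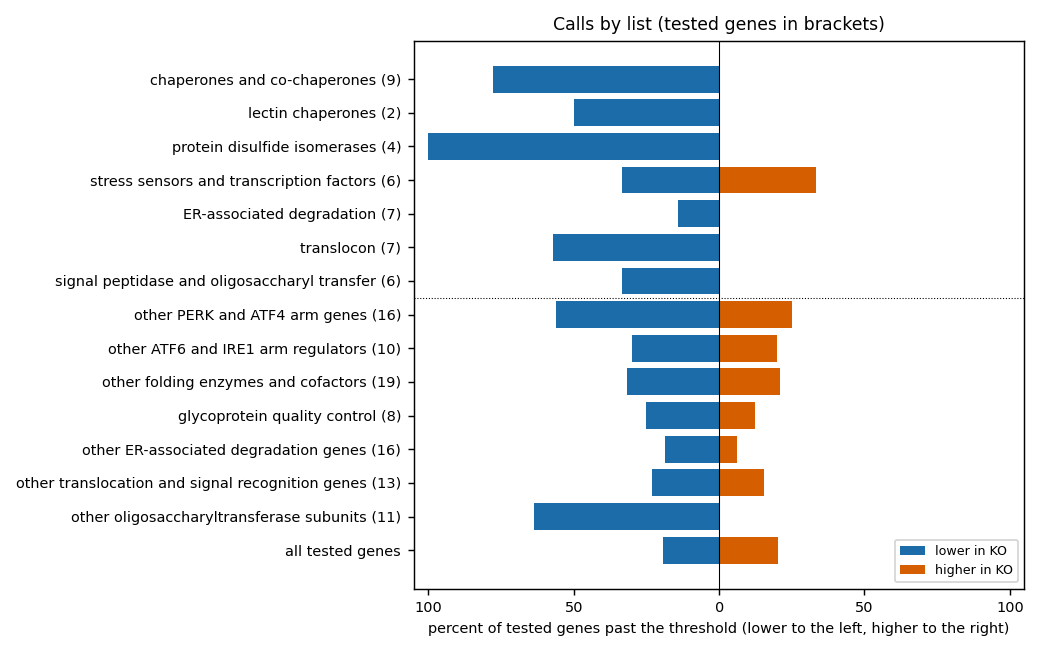
Percent of the tested genes of each list that were lower (left) or higher (right) in KO at an adjusted p under 0.05, with the number tested in brackets; lists above the dotted line make up the 42 genes, and the last row gives all 11636 genes (19.4% lower and 20.3% higher). Disulfide isomerases, chaperones and oligosaccharyltransferase subunits reach furthest to the left.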

How the data were processed

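RNA was measured in 3 KO and 3 WT libraries, grouped by their titles. Per the labels' protocols, RNA was selected with oligo(dT) and second strands were marked with dUTP. The tools named, per the submitters' processing notes, were StringTie 1.3.4d, HISAT2 2.0.4 and cutadapt 1.9, without their roles. Neither the genome build nor the use of strand in counting was given in the sources used here. The authors deposited 1 table with an FPKM value and an estimated count per gene and library. The deposited estimated counts are whole numbers that pile up at 4 and 8 (5769 values of 4, against 3204 of 3 and 2041 of 5; 2692 of 8, against 1689 of 7 and 1204 of 9), so about 4 counts stand for 1 fragment, and a floor of 3 fragments was taken as 12 counts. The floor covers counting error only. Coordinates are as the table lists them; 36 of the 42 genes have those of GENCODE M21 (GRCm38) and 41 share a start or end.

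Counts were tested with edgeR 4.0.16 (R 4.3.3; quasi-likelihood, TMM, two-sided). Each standard error was derived from the F statistic, as the size of the log2 fold change divided by the root of F. Alternatives were limma 3.58.1 on log2(FPKM + 1) and log2(FPKM + 0.1), DESeq2 1.42.0, other scalings and filters, counts divided by 4, the replicate block, each library left out, and an offset from each library's loess trend (span 0.3) on the length and GC content of the longest annotated transcript. Pseudogenes were matched by minimap2 2.31, with 50% or more of their length covered. On simulated counts for 11636 genes, the test of KO against WT recovered 76.8% of changes of 0.5, 95.5% of 1 and 98.5% of 2 on the log2 scale, and called 0.15% of unchanged genes. In the simulation 11436 genes were unchanged and no trend with length was planted, whereas 39.7% of genes were called in the data. Changes smaller than 0.5 were not simulated. These shares therefore do not carry over to the data. No 2 libraries of a genotype were 1 library deposited again: in counts divided by 4, chi-square was 4.05 to 8.70 times its degrees of freedom. Python 3.11.15, numpy 2.4.6, pandas 2.3.3 and matplotlib 3.10.9 were used.

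The genes, their roles, the 7 pathway lists and the marker lists were chosen with earlier results of these data known. Per-library values are given for genes past the threshold, and for Hspa5, Ern1, Eif2ak3, Atf6, Xbp1 and Atf4 whatever their p. Of each pathway list the 3 tested genes with the smallest p are named, and further genes were chosen after their values were seen. Promoters were printed for up to 6 genes with an ER stress element. Ern2 and Ccr7 were not analysed here.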

Additional observations from a re-analysis of the deposited data

How the results depend on the processing

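The count of the 41 tested genes that were lower in KO was 21, from 19 to 21 with each library left out and from 17 to 24 under the other alternatives. The count of higher genes was 2 throughout, except for 4 in limma on log2(FPKM + 1) and 4 in limma on log2(FPKM + 0.1), where Ssr3 and Eif2ak3 joined. Over all tested genes, 1969 to 2272 were higher and 1794 to 2047 lower with each library left out, and 1597 to 2770 higher and 1632 to 2880 lower otherwise. The length and GC correction turned the sign of 7 of the 41 genes, none past the threshold without it and 3 with it. Among named genes past the threshold with or without it, 5 turned, the same without and with the replicate block: Dnajc3 (-0.15 in both), Edem1 (-0.14 in both), Ssr1 (-0.23 in both), Edem3 (-0.017 in both) and Srp14 (0.061 in both); the cause was not tested. Whether the replicate numbers pair the libraries was not settled (same-numbered deviations correlated at 0.02, 0.19 and -0.04, the others at -0.17 to 0.16). With the replicate block 21 of the genes were lower and 2 higher, with 2407 higher and 2294 lower over all genes (22 and 2, 1671 and 1902 with the length and GC correction). Sec61g had a mean under 5 FPKM and has no value under that filter. Depth limits Derl3, with 19 to 58 estimated counts a library.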
